A study of Mus musculus with 8 samples.

Results

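The genes described here are 9 members of the Six-, Eya- and Dach-families, Six2, Six4, Six5, Eya1, Eya2, Eya3, Eya4, Dach1 and Dach2. They were found by symbol among the 55421 gene identifiers of the deposited table, 55154 of which matched the mouse annotation, and each symbol matched 1 row. All 9 had a mean of at least 1 TPM (an abundance scaled by gene length and library total) and so were among the 15717 genes tested. The tissue was the vagal part of the mouse embryo, next to somites 1 to 7, on embryonic day 9.5. In the group called trex both copies of Rdh10, the retinol dehydrogenase gene of retinoic acid synthesis, carried the trex allele, and the group called wt was wild type, with 4 libraries each. Every library was poly-A selected and strand-specific. No further allele, transgene, strain, sex or litter is named in the labels, which also leave unsaid how many embryos went into a sample. The p-values therefore describe only how these 8 libraries vary, and part of that variation may be technical.

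Six-family proteins are homeodomain transcription factors, named after the fly gene sine oculis. Eya proteins, named after eyes absent, do not bind DNA themselves. They join Six-family proteins as co-activators and also act as phosphatases. Dach proteins, relatives of the co-repressor Ski and named after dachshund, can turn the same complexes towards repression. The network is known for the preplacodal ectoderm, which gives rise to the otic and epibranchial placodes beside the hindbrain, and it also acts in pharyngeal arches, early muscle and kidney. In the vagal region it could be read from several tissues at once. In bulk RNA of such a region, fewer cells of a type and less RNA per cell cannot be told apart.

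A single promoter window is printed, that of Six2, because Six2 was the one member whose transcript level passed the test. The sequence is the mouse RefSeq sequence on GRCm38.p6, read 5′ to 3′ on the minus strand, chr17:85688275-85688504. It was kept to the 230 bases that lie before both the RefSeq and the GENCODE start of the gene.
Six2: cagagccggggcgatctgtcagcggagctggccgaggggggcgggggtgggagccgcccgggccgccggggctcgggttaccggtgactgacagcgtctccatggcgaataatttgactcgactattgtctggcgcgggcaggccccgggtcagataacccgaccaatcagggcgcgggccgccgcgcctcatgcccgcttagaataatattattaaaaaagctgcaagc
RefSeq windows of 250 bases before to 50 after a start were at hand for 7 of the 9 members, and Eya1 and Eya2 had none. The windows were searched on both strands for TCAGGTT, the core of the MEF3 site that Six-family proteins bind. They were also searched for the direct repeats of the retinoic acid response element, known as DR1, DR2 and DR5 for the bases between the repeats. No capital letters stand in the Six2 sequence because none of these motifs was found in its window. Among the members 1 match was found, a TCAGGTT on the strand opposite to the gene in a window of Six4. It starts 97 bases before a RefSeq start, within a first exon as GENCODE draws it, and is shown in capitals within 27 bases of the minus strand, chr12:73113326-73113352.
Six4: gcctgggggaAACCTGAtcggccagat
Of all 32851 windows, 4.07% held TCAGGTT, and 0.222%, 0.268% and 0.0974% held the repeats DR1, DR2 and DR5.

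Recovered depth ran from 20926427 to 23645542 reads per library, and each member rested on between 155 and 3356 whole reads in every library. From the wt mean, trex replicate 1 lay on average 0.457 away per gene on the log2(TPM + 1) scale, the other trex libraries 0.232 to 0.297, and each wt library 0.142 to 0.190 from the mean of the other wt libraries. Mitochondrial transcripts made up 2.61% of TPM in trex replicate 1, 4.5% to 7.14% in the other trex libraries and 6.73% to 7.95% in wt, so trex replicate 2 alone of the mutants lay within the wt range. Genes of primitive erythroid cells (8 genes, none called) summed to 3081 TPM in trex replicate 1 and to between 7185 and 16150 TPM in the other 7 libraries. What these differences add to the members' values was not tested. Rdh10 itself measured 76.0 ± 20.2 TPM in the mutants against 38.8 ± 2.20 TPM in wt (SD, n = 4), so its transcript level does not check the labels. Y-linked transcripts were present in wt replicates 2 and 3 (162 and 158 TPM) and at or under 0.0662 TPM in the other 6 libraries. Of the vagal markers, Hoxb3, Hoxb4, Hoxb5 and the somite gene Meox1 were present in every library, Hoxb5 at 20.2 TPM or more, while the forebrain genes Rax and Fezf2 stayed at or under 0.238 TPM.

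Among the 9 members 1 was called, Six2, which fell in the mutants. Here and below a call means a limma p, adjusted by Benjamini-Hochberg over all tested genes, below 0.05. Of all tested genes 8.71% were called, and 3.77% were called as lower in trex and 4.94% as higher, so 1 of 9 is near the background. The 592 genes lower and 777 genes higher in trex became 739 and 633 after quantile normalization. The libraries of both genotypes did not overlap for 4 members, Six2, Eya2, Dach1 and Dach2, all lower in trex, where 21.8% of tested genes did not overlap. An unadjusted p below 0.05 was found for 3 members and for 29.0% of tested genes. The median log2 difference (trex minus wt) was -0.18 over the members and 0.04 over all tested genes, and 5 members lay below 0 and 4 above.

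**Figure D1:**
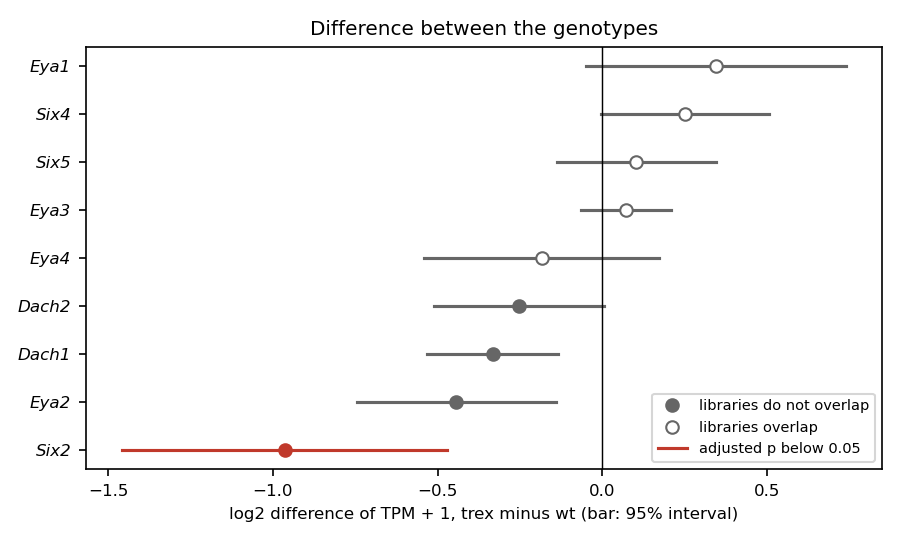
Log2 difference of TPM + 1 between trex and wt for each member (horizontal axis), with the 95% interval from limma as a bar. Filled points mark genes whose 4 trex and 4 wt libraries did not overlap, and red marks an adjusted p below 0.05. Six2 lies farthest to the left at -0.96, and the bars of Six4, Six5, Eya1, Eya3, Eya4 and Dach2 cross 0.

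Six2 (ENSMUSG00000024134, chromosome 17, 85684277 to 85688274, minus strand, mm10) encodes a homeodomain factor best known for keeping kidney progenitors undifferentiated, and it is also read in mesenchyme of the head and foregut. The trex libraries (replicates 1 to 4 in order, here and below) held 27.1, 12.8, 15.4 and 12.5 TPM. The wt libraries held 36.6, 33.3, 31.1 and 28.9 TPM. The groups did not overlap, and trex replicate 1 came within 2 TPM of the lowest wt library while the other trex libraries were far below it. Trex replicate 2, the mutant library nearest to wt over all genes, was thus among the lowest for Six2, and trex replicate 1, the farthest over all genes, was the highest. The means were 16.9 ± 6.89 TPM in trex and 32.5 ± 3.26 in wt, a 1.92-fold fall. The log2 difference was -0.96 ± 0.22 (SE), with a 95% interval of -1.46 to -0.47 and an adjusted p of 0.0336 in limma. An exact two-sided permutation test on TPM gave p = 0.0286, the smallest that 4 against 4 libraries can give. This p is unadjusted, and any gene whose groups do not overlap gets it. Without trex replicate 1 the wt mean was 2.40-fold higher and the adjusted p was 0.00156. The call was lost without trex replicate 3 or 4 or any single wt library (adjusted p 0.0654 to 0.103 in limma). It was also lost with no filter on low values (0.0662), sex as a covariate (0.18) or only the 6 libraries without Y-linked transcripts (0.295). In all these fits that lost the call, the log2 difference stayed between -1.02 and -0.85.

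Six4 (ENSMUSG00000034460, chromosome 12, 73099609 to 73113456, minus strand), a factor of cranial placodes and muscle precursors, was not called. In trex it was measured at 19.6, 16.7, 14.8 and 13.2 TPM, and in wt at 13.5, 12.95, 12.8 and 13.6 TPM. The wt libraries were tightly grouped, with an SD of 0.413 TPM, and only trex replicate 4 fell within their range. The log2 difference was 0.25, with an interval of -0.0025 to 0.51 and an adjusted p of 0.176 in limma. Six5 (ENSMUSG00000040841, chromosome 7, 19094594 to 19098549, plus strand), known as the neighbour of the myotonic dystrophy gene Dmpk, was the most abundant of the Six-family members and was not called either. Its trex libraries held 59.7, 43.5, 46.1 and 47.7 TPM and its wt libraries 51.4, 44.9, 45.4 and 40.5. The groups overlapped, and the interval of the log2 difference was -0.14 to 0.35 (adjusted p = 0.536 in limma).

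**Figure D2:**
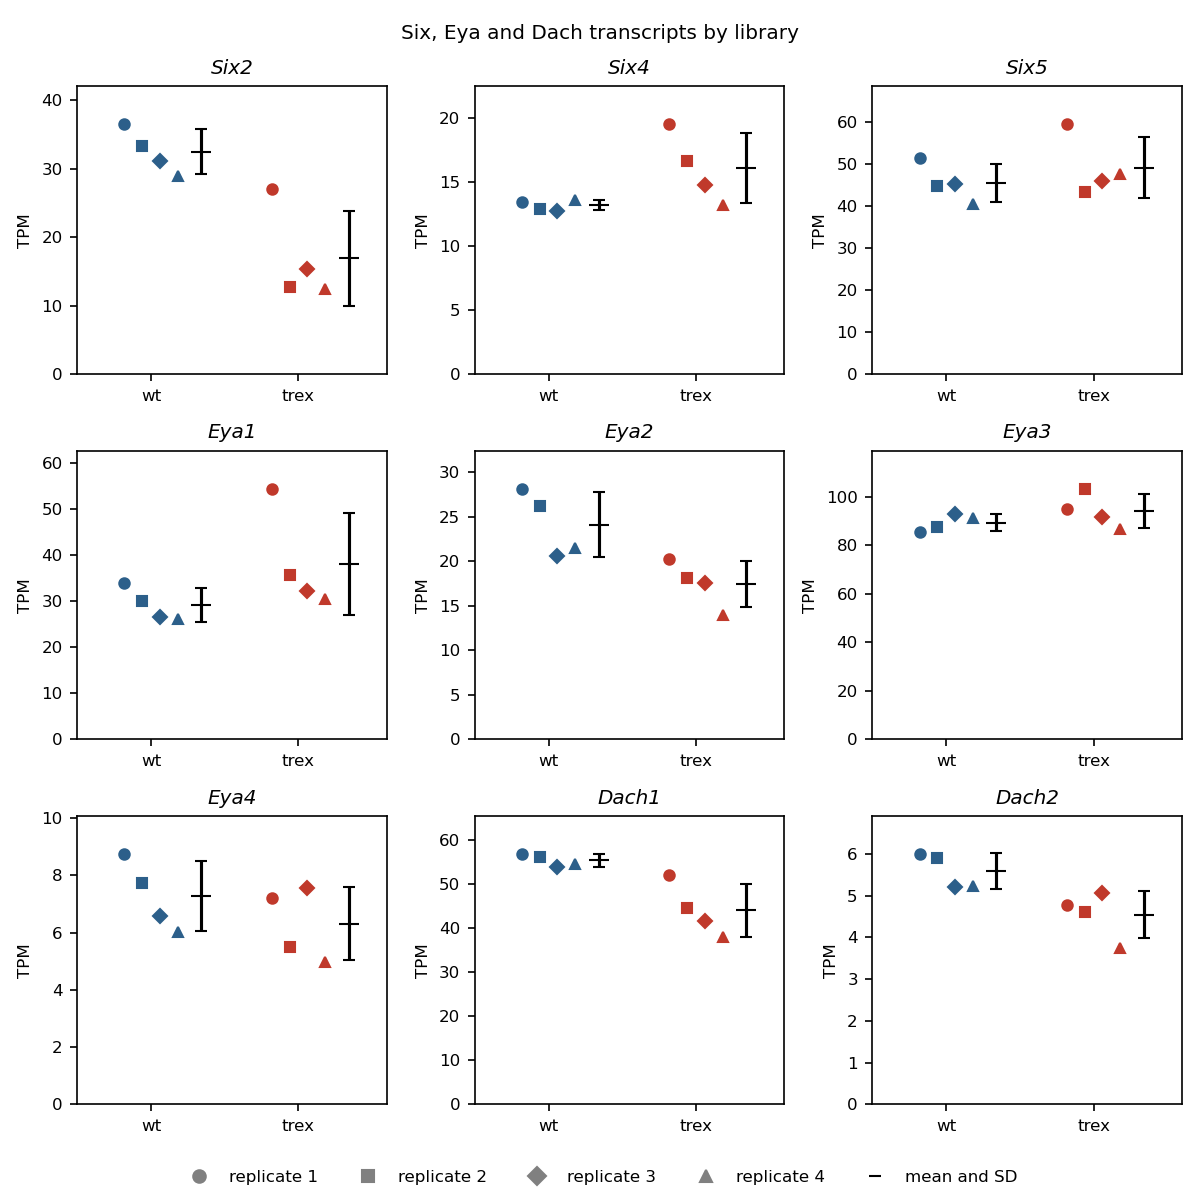
TPM of each member in the 8 libraries (vertical axes start at 0 and differ between panels), with the marker shape giving the replicate number and the black bar the mean and SD of a group of 4. The Six2 panel shows 1 trex library at 27.1 TPM and the other trex libraries between 12.5 and 15.4, with wt between 28.9 and 36.6.

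Eya2 (ENSMUSG00000017897, chromosome 2, 165595032 to 165771727, plus strand), a co-activator gene of placodes, sensory ganglia and somites, measured 20.2, 18.1, 17.5 and 13.97 TPM in the mutants against 28.1, 26.1, 20.5 and 21.5 TPM in wt. All trex libraries lay under all wt libraries, by a margin of less than 1 TPM between trex replicate 1 and wt replicate 3. The mean was 17.4 ± 2.59 TPM in trex and 24.1 ± 3.65 in wt. The log2 difference was -0.44 ± 0.13 (SE), with an interval of -0.75 to -0.14. Its adjusted p of 0.0734 in limma did not pass. The exact permutation p of 0.0286 is unadjusted and only restates that the groups did not overlap. It passed in 7 of 24 alternative fits, quantile normalization (0.0442) and the fit without trex replicate 1 (0.0483) among them.

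Eya1 (ENSMUSG00000025932, chromosome 1, 14168954 to 14310235, minus strand), the gene of branchio-oto-renal syndrome in people, had 1 mutant library apart from the others. The mutant values were 54.4, 35.5, 32.2 and 30.4 TPM, against wt values of 33.8, 30.1, 26.6 and 26.1. Trex replicate 1 was the highest by far, and the other trex libraries lay within the wt range or just above it. The log2 difference was 0.35 ± 0.17, with an interval of -0.05 to 0.74 and an adjusted p of 0.223 in limma. Without trex replicate 1 the ratio of the means went from 1.31 to 1.12. Eya1 starts 1.8 Mb from Rdh10 on the same chromosome. Tested genes that start within 5 Mb of Rdh10 numbered 29, Eya1 among them and Rdh10 left out. Of these 3 were called as higher in trex and 2 as lower, where over all tested genes it was 4.94% and 3.77%. The closest called one to Eya1 was Msc, encoding the repressor musculin of pharyngeal and other muscle precursors, which fell from 4.90 ± 0.808 to 0.383 ± 0.254 TPM (adjusted p = 0.00133 in limma).

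Eya3 (ENSMUSG00000028886, chromosome 4, 132638987 to 132724765, plus strand), the broadly expressed Eya gene, was the most abundant of all 9 members. Its mutant values were 95.01, 103.3, 91.5 and 86.8 TPM, against wt values of 85.3, 87.6, 93.0 and 91.3. The groups overlapped, and the log2 difference of 0.07 had an interval of -0.06 to 0.21, so a change beyond 1.16-fold in either direction lies outside the interval. Its adjusted p was 0.437 in limma. Eya4 (ENSMUSG00000010461, chromosome 10, 23102963 to 23350786, minus strand), a hearing and heart muscle gene, was scarce. It measured 7.22, 5.48, 7.55 and 4.97 TPM in the mutants against 8.75, 7.72, 6.58 and 6.01 TPM in wt. The groups overlapped widely, with a log2 difference of -0.18 (interval -0.54 to 0.17, adjusted p = 0.458 in limma).

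Both Dach genes, which encode nuclear co-repressors, lay lower in every trex library than in any wt library, and neither was called. Dach1 (ENSMUSG00000055639, chromosome 14, 97786853 to 98169765, minus strand) measured 52.0, 44.5, 41.7 and 37.9 TPM in the mutants against 56.9, 56.1, 53.8 and 54.7 TPM in wt. The wt values spanned little more than 3 TPM, and trex replicate 1 came within 2 TPM of them. The mean was 44.0 ± 5.98 TPM in trex and 55.4 ± 1.41 in wt, a ratio of 0.795. The log2 difference was -0.33 ± 0.09 (SE, interval -0.53 to -0.13) with an adjusted p of 0.0512 in limma, just short of the threshold. Without trex replicate 1 the adjusted p was 0.00796, and without the other single libraries it ran from 0.0498 to 0.141. Dach2 (ENSMUSG00000025592, chromosome X, 113297510 to 113836386, plus strand) measured 4.78, 4.60, 5.06 and 3.75 TPM in the mutants against 6.01, 5.90, 5.21 and 5.23 TPM in wt. Its log2 difference was -0.25 (interval -0.51 to 0.01, adjusted p = 0.182 in limma). Dach2 is X-linked. It measured 5.90 and 5.21 TPM in the wt libraries with Y-linked transcripts (replicates 2 and 3) and 6.01 and 5.23 TPM in those without. No trex library held such transcripts at a comparable level. With sex as a covariate the log2 difference of Dach2 was -0.26 (adjusted p = 0.419 in limma). The part of sex in the Dach2 values was not tested. For Dach1 and Dach2 alike the exact permutation p was 0.0286, again unadjusted and a restatement of the lack of overlap.

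**Figure D3:**
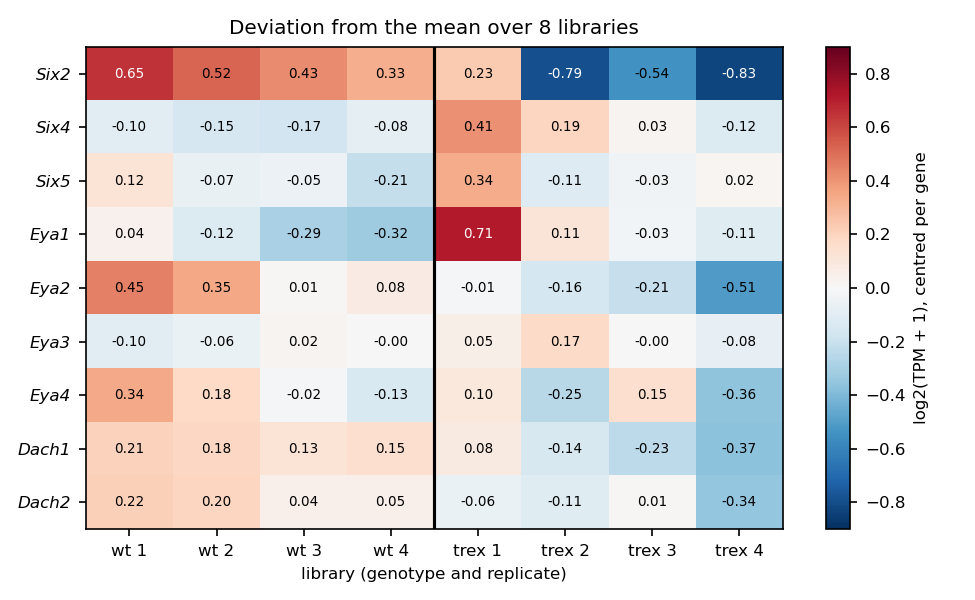
Log2(TPM + 1) of each member (rows) in each library (columns), centred on the mean over the 8 libraries. Blue is below and red above that mean. The Six2 row runs from 0.65 in wt replicate 1 to -0.83 in trex replicate 4, and the Eya1 row reaches 0.71 in trex replicate 1.

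Within a genotype, the same library was often the highest or the lowest for several members. Trex replicate 4 held the lowest trex value of 8 of the 9 members, all but Six5, whereas it held the lowest trex value of 22.9% of tested genes. Trex replicate 1 held the highest trex value of 6 members, and of 44.5% of tested genes. Among the wt libraries replicate 1 was the highest for 7 members and for 38.2% of tested genes. The members share these libraries, so such counts describe the libraries and are not independent of one another. The coefficient of variation was larger in trex than in wt for 8 of 9 members, all but Eya2, and reached 40.7% for Six2 in trex against 10.04% in wt.

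TPM is scaled by length, so levels of different genes can be set side by side. In wt the order was Eya3, Dach1, Six5, Six2, Eya1, Eya2, Six4, Eya4 and Dach2, from 89.3 to 5.59 TPM on average. Neighbours in this order did not overlap in wt, except that Six2 overlapped Eya1 and Eya1 overlapped Eya2. In trex Six5 was above Dach1 in 3 of 4 libraries, and Eya1 was above Six2 in all 4, where Six2 had been above Eya1 in all 4 wt libraries.

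Shares within a family do not depend on how a library is scaled. Six2 made up 35.6% ± 0.868 (SD, n = 4) of the summed TPM of the 3 Six-family members in wt and 20.04% ± 3.88 in trex. The wt libraries lay between 34.8% and 36.5% and the trex libraries between 17.0% and 25.5%, so trex replicate 1 was well below wt on this measure. Its Six-family sum was also the largest, 106.3 TPM against at most 101.5 in wt, because Six4 and Six5 were highest there. A lower share in that library is thus not only a lower Six2 level. Six5 took 49.9% ± 1.02 in wt and 60.3% ± 3.65 in trex, and Six4 14.6% ± 1.32 and 19.7% ± 2.21. Among the 4 Eya members Eya2 held 16.03% ± 1.93 in wt and 11.2% ± 0.642 in trex, again without overlap, with the highest trex library at 11.8% and the lowest wt library at 13.99%. The Eya1 share was 19.4% ± 1.74 in wt and 24.1% ± 4.41 in trex, with trex replicate 1 at 30.8%. Dach1 was 90.9% ± 0.433 of the Dach sum in wt and 90.6% ± 1.03 in trex, and these ranges overlapped.

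**Figure D4:**
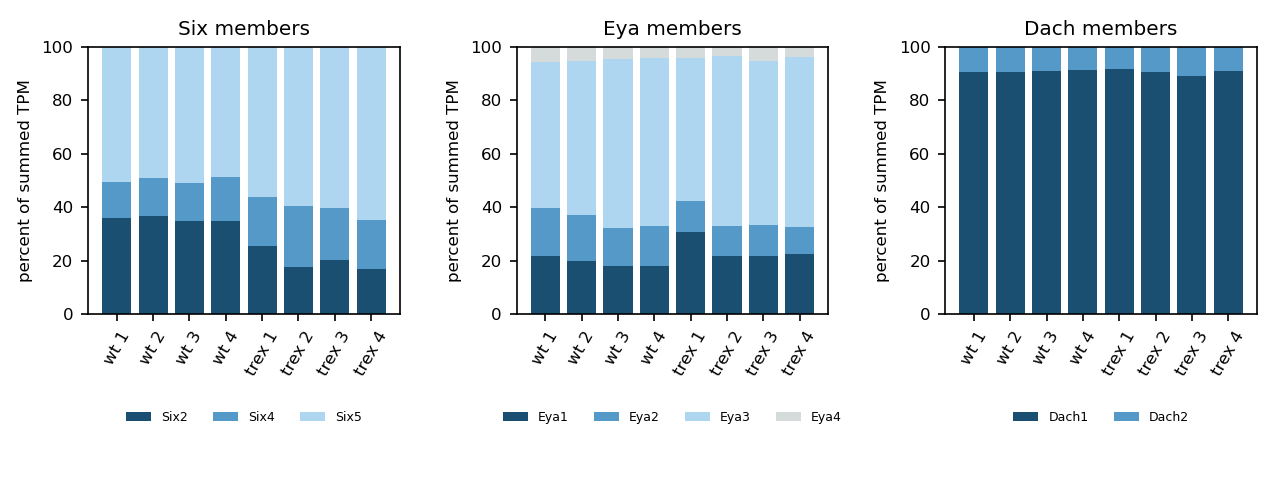
Share of each member in the summed TPM of its family (percent, vertical axis) in each library (horizontal axis, genotype and replicate). The Six2 segment at the bottom of the Six-family panel is 34.8% to 36.5% in wt and 17.0% to 25.5% in trex, while the Dach segments are nearly level.

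By mean absolute difference of centred log2(TPM + 1) over the 8 libraries, the nearest gene to Six2 was Msx3, a dorsal neural tube factor, at 0.12 per library. Msx3 measured 47.3 TPM in the mutants against 100.2 TPM in wt. The nearest member to Six2 was Eya2, at 0.322. Dach1 and Dach2 were each other's nearest member at 0.0805, while Nfat5 was nearest to Eya1 at 0.0487 and Fzd3 to Dach2 at 0.036. These distances describe 8 libraries and say nothing of control.

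Of 19 tested genes of co-repressors, co-activators and other partners of the network, 3 fell in trex and the other 16 were not called, with a median log2 difference of -0.002. The 3 calls became 1 without wt replicate 2, and 0 with sex as a covariate or in the 6 libraries without Y-linked transcripts. Ski, the co-repressor related to Dach, fell from 145.8 ± 2.58 to 114.6 ± 8.34 TPM (adjusted p = 0.0121 in limma). Tle1, a Groucho co-repressor, fell from 44.5 ± 2.85 to 32.4 ± 3.72 TPM (0.0198), a call that ended without any of 5 single libraries, at up to 0.0773. Zfp703, a zinc finger repressor, fell from 111.6 ± 5.04 to 91.9 ± 2.11 TPM (0.0126, and 0.0605 without wt replicate 2). Sobp, a Six-binding cofactor, measured 8.94 ± 2.55 TPM in the mutants against 8.88 ± 1.34 TPM in wt.

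Of 21 tested placode transcription factors 1 rose, 2 fell and 18 were not called, with a median log2 difference of 0.22. The 3 calls became 5 and 7 without trex replicates 1 and 2, 1 without wt replicate 2, and 0 with sex as a covariate or in the 6 libraries without Y-linked transcripts. Dlx5, a homeodomain factor of the preplacodal and arch region, rose from 4.09 ± 0.410 to 9.39 ± 2.65 TPM (adjusted p = 0.0149 in limma, and 0.054 without wt replicate 2). Sox3, a factor of neural and placodal progenitors, fell from 86.3 ± 9.97 to 32.5 ± 9.66 TPM (0.00837). Pax6 fell from 28.7 ± 2.70 to 18.5 ± 2.63 TPM (0.0166, up to 0.0693 without wt replicate 1 or 2) and is at least as well known for the neural tube as for placodes.

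Of 13 tested genes of cranial placode neurons, many of which other neurons also use, 8 fell and 1 rose, and their summed level was 122.0 to 205.1 TPM in trex and 264.7 to 385.8 in wt. These 9 calls became 4 without trex replicate 4 or any of wt replicates 1, 2 and 3, 5 without a filter on low values, 2 with sex as a covariate and 0 in the 6 libraries without Y-linked transcripts. Neurog1, a proneural factor of sensory neurons, fell from 40.6 ± 10.24 to 12.6 ± 3.70 TPM (SD, n = 4 each; adjusted p = 0.0082 in limma). The part of these cells in the lower Six2 and Eya2 values was not tested. Of 10 tested otic vesicle genes 2 rose and 2 fell, and their defining markers Oc90 and Otol1 were at 0 in 7 of 8 libraries each. The 4 otic calls became 2 without trex replicate 3 or 4 or wt replicate 1, 3 or 4, 1 without wt replicate 2, and 0 with sex as a covariate or in the 6 libraries without Y-linked transcripts. In trex replicate 1, where Six4, Six5 and Eya1 were highest, the otic genes Lmx1a, Pax8 and Hmx3 stood at 35.3, 9.52 and 5.12 TPM. In the other trex libraries they reached at most 12.4, 3.47 and 1.04 TPM. These otic genes were picked after their values were seen, and not all of the list followed them. Oc90 was at 0 in trex replicate 1 and at 0.690 TPM in trex replicate 3. Pax2 was at 2.15 TPM in trex replicate 1 and at 2.61 TPM in trex replicate 4. What otic tissue added to the members' values in trex replicate 1 was not tested.

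Six- and Eya-family genes also act in nephric, muscle, pharyngeal and somite tissue. The called genes of the muscle list all fell, while the nephric, pharyngeal and somite lists held calls in both directions. Of 10 tested nephric genes Osr1, a factor of early nephric and foregut mesoderm, fell 1.64-fold (adjusted p = 0.0197, up to 0.076 without any of 3 single libraries) and the other 8 besides Cited1 were not called. Cited1, a co-regulator of kidney progenitors, rose from 16.1 ± 3.14 to 26.2 ± 4.53 TPM (adjusted p = 0.0332 in limma, and up to 0.102 without any of 5 single libraries). Of 15 tested skeletal muscle genes 6 fell and 9 were not called. Mylpf, the fast myosin light chain of skeletal muscle, fell from 62.8 ± 8.04 to 14.5 ± 2.31 TPM (0.000225), and Myf6, a myogenic factor, from 8.11 ± 1.63 to 2.26 ± 0.801 TPM (0.00777). The summed level of the muscle list, which also holds genes of heart muscle, overlapped between the genotypes (160.8 to 1441 TPM in trex, 463.7 to 1702 in wt). Of 15 tested pharyngeal genes 2 rose and 2 fell, and of 14 somite and myogenic precursor genes 3 rose and 2 fell. The 2 nephric calls became 4 without trex replicate 1 or 2, 1 without trex replicate 3 or wt replicate 1, and 0 without trex replicate 4 or wt replicate 2 or 3. The 6 muscle calls became 3 without wt replicate 2. The 4 pharyngeal calls became 2 without trex replicate 4 or any wt library, and the 5 somite calls became 2 without trex replicate 4 or wt replicate 1, 2 or 4, and 3 without wt replicate 3. With sex as a covariate the nephric, muscle, pharyngeal and somite lists had 0, 1, 2 and 2 calls, and in the 6 libraries without Y-linked transcripts they had 0, 1, 0 and 0. Where these lists moved, their part in the Six2 values was not tested.

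**Figure D5:**
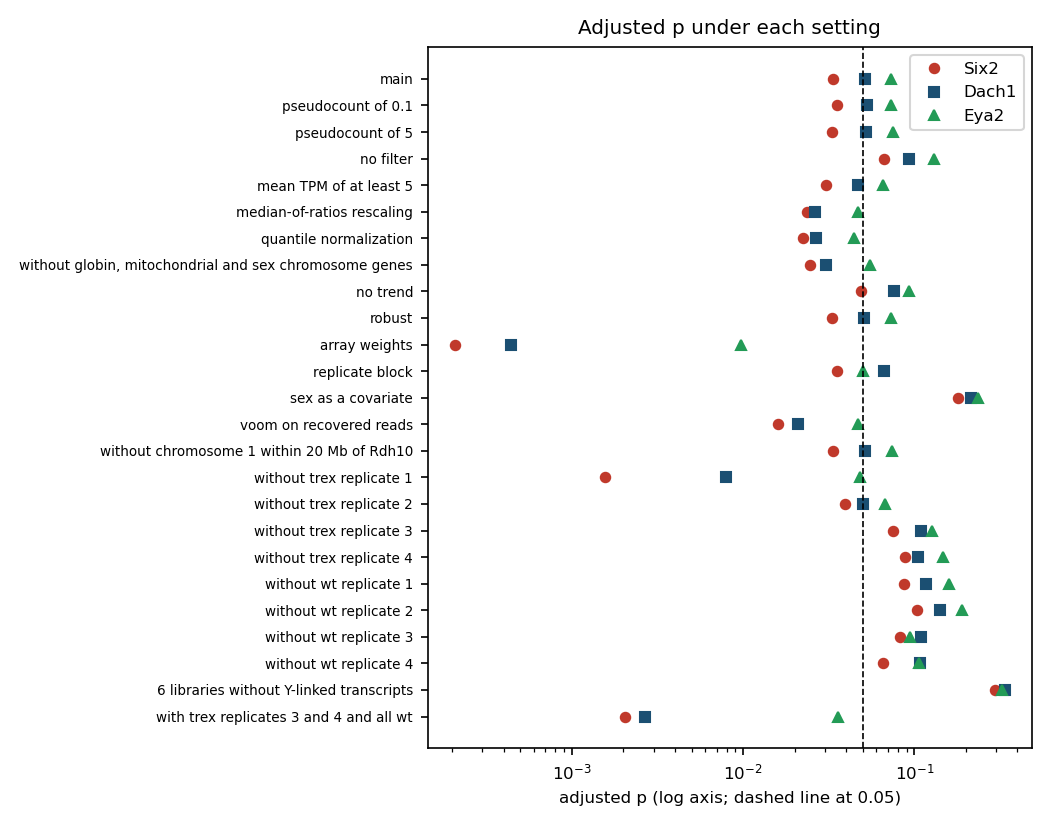
Adjusted p of Six2, Dach1 and Eya2 (horizontal log axis) under each way of processing the data (vertical axis), with a dashed line at 0.05. Six2 lies left of the line in 16 of 25 settings, Dach1 in 9 and Eya2 in 7.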

How the data were processed

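RNA-seq of 8 libraries was analysed. The deposited values are TPM, made by the authors, 1 column per sample, each summing to 1000000. CASAVA 1.8.2, STAR and mm10 were used, per the submitters' processing notes. The counter of reads, its strand setting and its annotation: not given in the sources used here. Symbols, coordinates and exonic lengths came from GENCODE M21 on the same assembly. TPM times exonic length gave whole reads (within 0.001 read) for 98.7% to 98.9% of low values, up to 200 reads, and for every member. They serve for depth and for 1 alternative (voom, with libraries scaled by the median of ratios, a scaling chosen after a first run with another). Genes overlapping a member reached at most 0.489 TPM. No libraries of a group agreed within sampling noise (chi-square per gene 4.81 or more).

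Genes with a mean of at least 1 TPM were tested with limma 3.58.1 in R 4.3.3 (eBayes with a trend, log2(TPM + 1), genotype as the only term, two-sided, Benjamini-Hochberg). Differences on this scale understate changes of scarce genes. On simulated data of 15717 genes for trex against wt, it called 48% of 50 genes shifted by 0.5 (log2), 88% of those shifted by 1, 92% for 1.5 and 98% for 2, with 9 false calls. The simulated noise was drawn independently for each gene and library, and only genes with a mean log2(TPM + 1) above 2 were shifted. It held no deviation that many genes of a library share, as the real libraries do. These rates therefore need not hold for the real data. Exact permutation tests used all 70 divisions.

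The members, the 13 gene lists and the tests were chosen with earlier results of these data known. Named were the members, Rdh10, the 3 called genes of smallest p in a list, and the 2 nearest genes to a member, of which some are printed. Some of these genes are not reported here. Others, such as Sobp, marker genes and the otic genes of trex replicate 1, were chosen after their values were seen. Another 22 settings were tried, and 2 more were added after seeing the data, all named in the plot of adjusted p by setting.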

Additional observations from a re-analysis of the deposited data

How the results depend on the processing

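The direction of every member was the same in all alternatives run, except that Eya3 had a log2 difference of -0.0023 with trex replicates 3 and 4 alone against wt. The number of members called, 1 in the main analysis, was 0 without a filter on low values and with sex as a covariate, where 3 members each had an unadjusted p below 0.05 in limma. It was 2 with a minimum mean of 5 TPM or without globin, mitochondrial and sex chromosome genes. Those fits called 1198 of 11677 and 1324 of 15459 tested genes. It was 3 after median-of-ratios rescaling, quantile normalization, array weights or voom on recovered reads. In that order, 1384, 1372 and 5524 of 15717 tested genes and 1511 of 15700 were called, so with array weights the calls rose over all genes. Leaving out single libraries gave 0 to 3 members: 3 without trex replicate 1, 2 without trex replicate 2, and 0 without any of the other 6. Of the added alternatives, the 6 libraries without Y-linked transcripts gave 0 and trex replicates 3 and 4 against wt gave 3. The members gained were Dach1 and Eya2. Dach2 has no value without sex chromosome genes, nor Eya1 without chromosome 1 around Rdh10. The count over all genes, 1369, was 694 without a filter, 5524 with array weights, 39 with sex as a covariate, 8 in the 6 libraries without Y-linked transcripts, 3170 with trex replicates 3 and 4 against wt, and 199 (without wt replicate 2) to 2926 (without trex replicate 2) without single libraries. It was 1671, 592 and 375 without trex replicates 1, 3 and 4, and 462, 394 and 611 without wt replicates 1, 3 and 4. With the replicate number as a block, 687 genes and 2 members, Six2 and Eya2, were called. Deviations of same-numbered libraries from their group means had correlations of 0.162, -0.023, -0.004 and 0.252. Replicates 1 and 4 of trex correlated best with their own number, and replicates 2 and 3 of trex did not. With so few libraries these values cannot tell whether the numbers pair the samples, and the labels do not say. The cause of these shifts was not tested. Counts of at least 155 reads limit the precision of Six2 less than the spread between libraries does.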
